A study of Mus musculus with 8 samples.

Results

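Nrf2 target genes were followed across the livers and tumors of Fah-/- mice. The 10 genes were chosen by symbol as textbook targets of Nrf2 (Nqo1, Gclc, Gclm, Srxn1, Txnrd1, Slc7a11, Hmox1, G6pdx, Ephx1 and Ugdh), and all 10 were found among the 22504 genes of the expression table and passed the filter on low values (10244 genes tested). Expression was measured by RNA sequencing of 8 mice of the 129S4 background, each Fah-/- (knockout of Fah, the last enzyme of tyrosine breakdown), and kept alive by NTBC, an inhibitor of tyrosine catabolism upstream of Fah, at 7.5 mg/L in the drinking water. Livers of the group C 8w (MCLI livers, n = 3, samples 1a, 2a and 3a) came from mice given 2.5% of the NTBC dose for 8 weeks, named moderate chronic liver injury (MCLI). The group C 8w + A 4w (SALI livers, n = 3, samples C096, C097 and C098) had the same 8 weeks followed by 4 weeks in which NTBC was taken away, named severe acute liver injury (SALI). The group C 12w (tumors, n = 2, samples 2e and 3e) had MCLI for 12 weeks, and its tissue label is tumor, so time under injury and tissue cannot be told apart there. Every group had the same genotype and was injured, so no uninjured level of these genes was measured, and the ages of the mice are not given in the labels. The question was how the Nrf2 program differed between chronic injury alone, chronic injury followed by severe injury, and tumors.

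Nrf2 (gene Nfe2l2) is a transcription factor that is normally held in the cytoplasm and marked for destruction by Keap1 with the ubiquitin ligase built on Cul3. Electrophiles and oxidants that react with cysteines of Keap1 let Nrf2 accumulate, pair with a small Maf protein and bind the antioxidant response element (ARE) of its targets. In the liver these targets make glutathione, reduce thioredoxin, supply NADPH, detoxify quinones and epoxides and break down heme. Fumarylacetoacetate, the substrate of Fah, and its derivatives are reactive electrophiles that are known to bind thiols.

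Libraries of the groups differed in ways that the treatment does not name. The codes of MCLI livers and tumors follow a scheme that differs from that of SALI livers, so that code scheme and group cannot be told apart. Gapdh was listed at 0.10 to 0.25 FPKM (fragments scaled by transcript length and by the size of the library) in the 5 MCLI and tumor samples and at 68.2 to 99.9 in SALI livers. Ppia and Alb were at or near 0 in the same 5 samples. Of 12 genes listed as active in every cell, 9 passed the filter, and 5 of these rose and 3 fell in SALI against MCLI livers by the test described with the first comparison, with a median log2 fold change of 0.97. By the ratio of means Hprt was 2.56 times, Eef1a1 3.49 times and Rplp0 8.23 times as high in SALI livers. In tumors against MCLI livers 2 of the 9 rose and 0 fell (3 and 1 at an unadjusted p under 0.05, limma), with a median of 0.24. Every difference between SALI livers and the other groups stands beside these values, and the part of the code scheme in it cannot be told apart from that of the treatment. Shared sequence was computed by cutting each gene into 50-base windows and taking the percentage found in at least one other gene. It was 25.1 for Gapdh and 17.3 for Ppia but 0 for Alb, so a low percentage does not show that a gene is free of such differences. Among the 10 genes it was 0 for Nqo1, Gclc, Srxn1, Txnrd1 and Hmox1, 1.47 for Slc7a11, 1.70 for Ephx1, 1.84 for Ugdh, 4.58 for Gclm and 16.9 for G6pdx. Fah itself was listed at 15.6 to 16.8 FPKM in MCLI livers, at 5.02 to 6.36 in SALI livers and at 13.5 and 14.4 in tumors. All groups are Fah-/-, so this checks no label. All 13 hepatocyte markers listed besides Alb were above 1 FPKM in every sample, with a summed level of 10156 to 15196 FPKM. Of 10 retina markers, listed because the label text on extraction names retinas, Crx and Rcvrn were at 0 and the summed level was 10.6 to 19.1 FPKM.

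Promoter sequence was at hand for 8 of the 10 genes, and the stretches that hold an ARE core or an AP-1 site upstream of the start are shown because these are the letters through which Nrf2 or its relatives can act. Windows ran from 250 bases before to 50 bases after the annotated start (RefSeq, GRCm38.p6). The ARE core searched was TGACNNNGC and the AP-1 site TGACTCA, on both strands, and capitals mark the match. Both begin with the same 4 letters, so 1 place can match both. An ARE core was found in 5 of the 10 windows of these genes (5 of 8 genes), and in 12.4% of 32851 windows of all genes. An AP-1 site was found in 1 of the 10 windows, and in 5.2% of all windows.
Srxn1, chr2:152105397-152105510, plus strand, AP-1 sites at -102 to -96 and -45 to -39: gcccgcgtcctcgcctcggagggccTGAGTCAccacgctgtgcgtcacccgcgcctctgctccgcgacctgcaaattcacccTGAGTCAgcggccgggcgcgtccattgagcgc
Txnrd1, chr10:82859089-82859147, plus strand, ARE core at -92 to -84: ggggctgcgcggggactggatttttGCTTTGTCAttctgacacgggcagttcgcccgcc
Gclm, chr3:122245398-122245456, plus strand, ARE core at -134 to -126: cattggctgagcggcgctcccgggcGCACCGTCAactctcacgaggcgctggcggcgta
G6pdx, chrX:74428904-74428962, minus strand, ARE core at -57 to -49: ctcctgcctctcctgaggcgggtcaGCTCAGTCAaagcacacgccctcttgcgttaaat
Ugdh, chr5:65435903-65435999, minus strand, ARE cores at -132 to -124 and -94 to -86: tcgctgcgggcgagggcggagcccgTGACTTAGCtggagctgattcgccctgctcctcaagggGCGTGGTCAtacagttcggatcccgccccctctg
Each is written 5′ to 3′ along its gene. The ARE core of Srxn1 lay after the start, at 29 to 37. A match of letters is a description, and no binding was measured.

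Levels of the 10 genes spanned a wide range. In MCLI livers the mean was highest for Ephx1, at 1161 FPKM, and lowest for G6pdx, at 9.79 FPKM. Ugdh and Gclc followed Ephx1 with ranges that overlapped. Txnrd1, Nqo1 and Srxn1 formed an overlapping trio around 132 to 213 FPKM. Gclm stood apart below them, and Slc7a11 and Hmox1 overlapped each other. In SALI livers, Srxn1 moved from the sixth to the second place in the order, where its range of 693 to 782 FPKM overlapped that of Ephx1 above it and Gclc below it. In tumors, Gclc had the highest mean, but the range of its samples, 313 to 1238 FPKM, overlapped those of Ephx1 and Ugdh. G6pdx was last in every group.

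**Figure D1:**
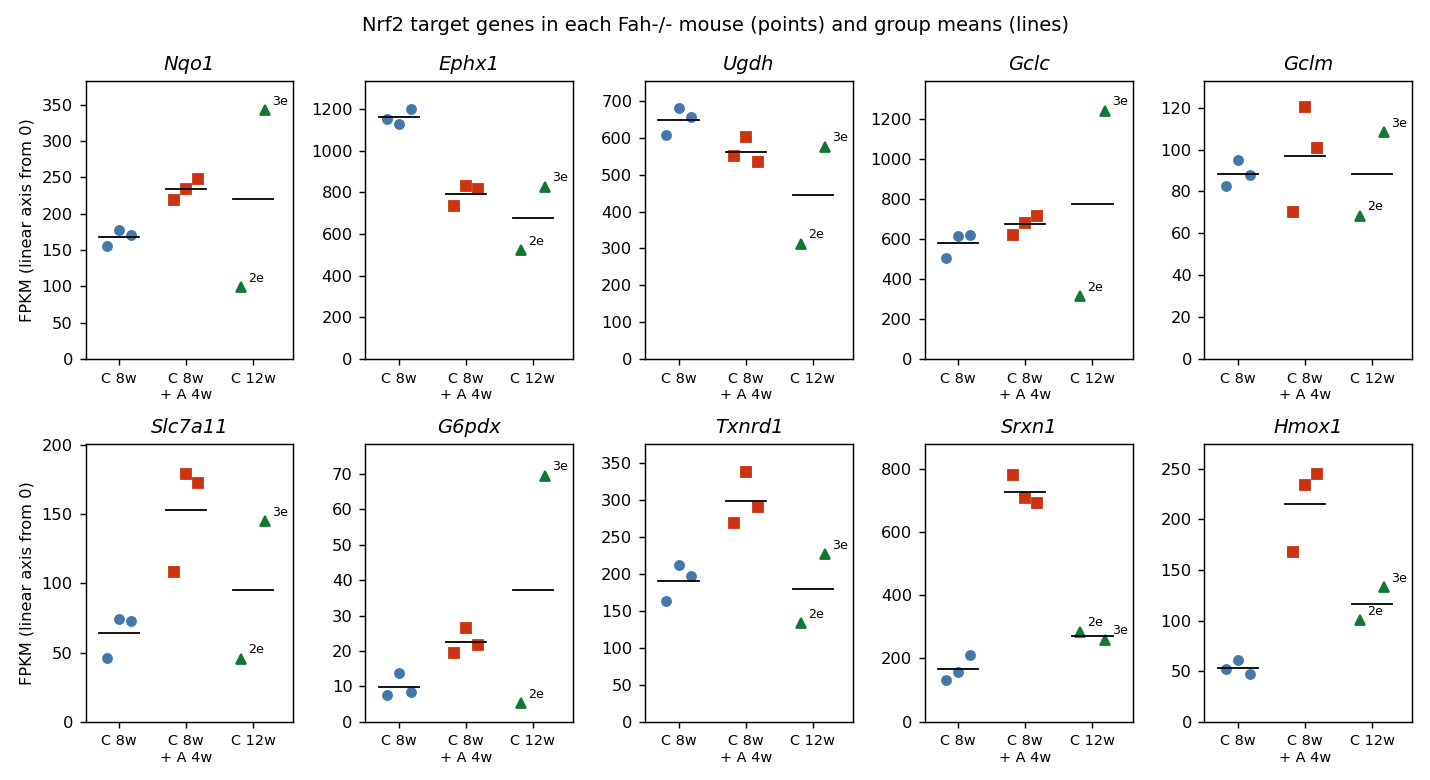
Each panel plots 1 gene, with FPKM on a linear axis that starts at 0, a point for each mouse (circles C 8w, squares C 8w + A 4w, triangles C 12w) and a line at the group mean. Srxn1 and Hmox1 sit highest in all 3 mice of C 8w + A 4w, and the C 12w samples 2e and 3e lie far apart for Gclc, Nqo1, Slc7a11 and G6pdx.

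After the added SALI weeks, the genes of sulfiredoxin, heme oxygenase, the cystine transporter and thioredoxin reductase were higher than under 8 weeks of MCLI alone. Srxn1 rose 4.35-fold, Hmox1 4.04-fold, Slc7a11 2.38-fold and Txnrd1 1.57-fold by the ratio of group means. The other 6 genes, among them both subunits of the enzyme that starts glutathione synthesis, did not pass the test. Expression was compared on log2(FPKM + 1) with limma, in 1 fit of all 3 groups, at a Benjamini-Hochberg adjusted p of 0.05 over all 10244 genes. 4 of the 10 genes rose and 0 fell by this test (at an unadjusted p under 0.05, 4 and 1, the latter Ephx1). Of all genes tested, 25.3% rose and 14.1% fell. After median-ratio scaling, and likewise after scaling to the same summed FPKM, 2 rose (Srxn1 and Hmox1) and 1 fell (Ephx1). The members' median log2 fold change was 0.56, and that of all genes 0.12. Relative to the median of all genes the differences were 2.02 for Srxn1, 1.86 for Hmox1, 1.12 for Slc7a11 and 0.53 for Txnrd1. Of the calls over all genes, 64.2% were higher in SALI livers as deposited. That share was 49.4% after median-ratio scaling of the samples, 53.5% after scaling to the same summed FPKM, 47.1% after quantile normalization and 52.5% after median-ratio scaling over genes with little shared sequence.

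In tumors against MCLI livers, 3 of the genes passed the test. Hmox1 rose 2.19-fold and Srxn1 1.63-fold by the ratio of means, and Ephx1, the microsomal epoxide hydrolase, fell to 0.582 times its level. 2 of 10 rose and 1 fell, while of all genes 12.2% rose and 6.98% fell. The split was 1 and 1 after median-ratio scaling, 1 and 2 with that scaling over genes with little shared sequence, and 2 and 0 after the other scalings. It was 5 and 1 without 2e, where 25.1% of all genes rose and 11.2% fell, and 1 and 4 without 3e, where 8.53% rose and 6.36% fell. The members' median was 0.12 on the log2 scale, the same as the median of all genes, 0.12. Over all genes, 63.6% of the calls were higher in tumors, and this became 47.4%, 46.9% and 45.4% after median-ratio scaling, quantile normalization and median-ratio scaling over genes with little shared sequence, but 72.2% after scaling to the same summed FPKM. Directly compared, SALI livers were above tumors for Srxn1 (2.67-fold), Hmox1 (1.85-fold) and Txnrd1 (1.66-fold). These were 3 of 10 genes higher and 0 lower (0 also at an unadjusted p under 0.05), where 17.4% of all genes were higher and 15.4% lower. Without 3e 9 were higher and 0 lower (17.6% and 12.8% of all genes). Without 2e 1 was higher (Srxn1) and 3 were lower (G6pdx, Gclc and Nqo1), beside 18.1% and 22.9% of all genes, so the direction of this count rests on which tumor is kept. The members' median was 0.37, and that of all genes 0.01. Of those calls 53.1% were higher as deposited and 35.9% after scaling to the same summed FPKM, with 49.9% to 55.1% after the other scalings. A moderated F test over the 3 groups called 4 of the 10 genes (Srxn1, Hmox1, Txnrd1 and Ephx1), and 49.7% of all genes. The 3 comparisons share their samples and are not independent. Counts of called genes in the lists below are to be read beside the shares of all genes given for each comparison.

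The spread between the tumor samples entered every test of that fit. With only the MCLI and SALI livers in the fit, 6 genes rose (32.1% of all genes did) and 1 fell (18.5% did). Nqo1 (adjusted p = 0.00808) and G6pdx (adjusted p = 0.00279) then rose and Ephx1 (adjusted p = 0.00471) fell, besides the 4 genes already named.

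**Figure D2:**
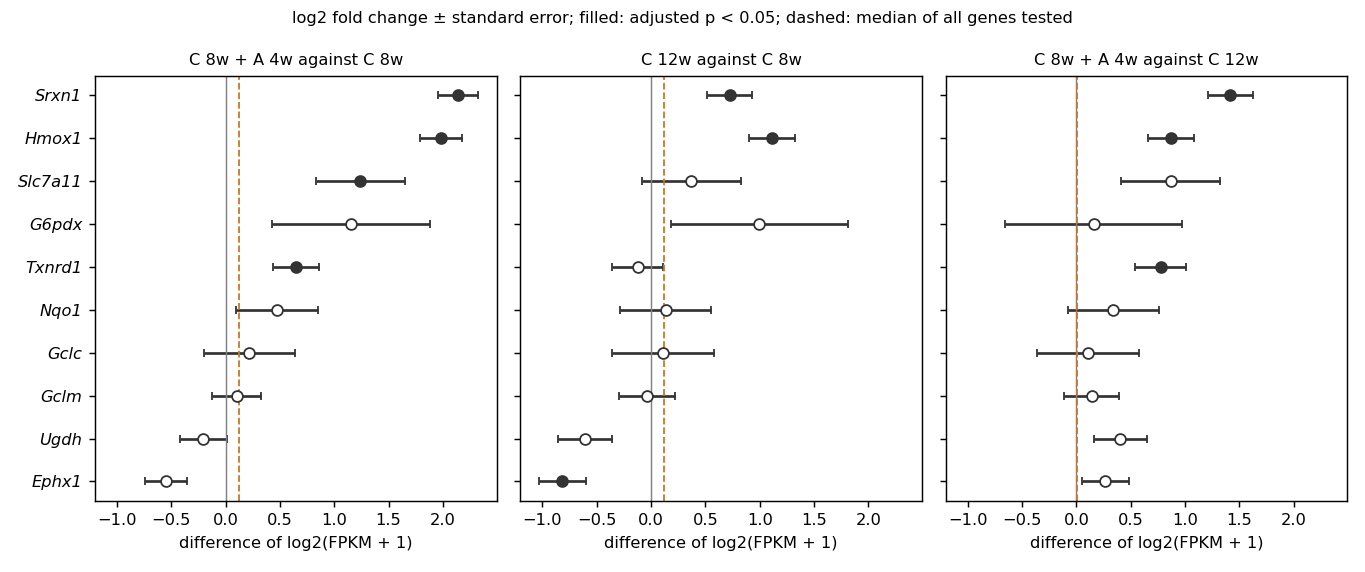
Points give the difference between group means of log2(FPKM + 1) for each gene, bars the standard error from the limma fit of 3 groups, filled points an adjusted p under 0.05, and the dashed line the median of all genes tested. Srxn1 and Hmox1 are the only genes of the 10 with filled points in all 3 comparisons, and the bars of G6pdx are the widest.

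Srxn1, whose AP-1 sites stand with the promoters, encodes sulfiredoxin, which restores peroxiredoxins that were overoxidized. It was at 132, 158 and 213 FPKM in MCLI livers, at 782, 709 and 693 FPKM in SALI livers, and at 285 and 259.8 FPKM in tumors (2e and 3e). The 3 groups did not overlap, with tumors between the others. Group means were 167 ± 41.3 (SD, n = 3), 728 ± 47.4 (SD, n = 3) and 272 ± 17.5 FPKM (SD, n = 2). The log2 fold change of SALI against MCLI livers was 2.14 ± 0.19 (SE, adjusted p = 6.78e-05), and against tumors 1.41 ± 0.21 (adjusted p = 0.00156). Both calls held under every alternative run, at 1.98 to 2.33 and 1.23 to 1.48. The difference between tumors and MCLI livers was 0.73 ± 0.21 (adjusted p = 0.0431) and rests on each of several libraries. Its adjusted p was 0.07 and 0.0707 without 3e and without 2e, 0.135 and 0.116 without 1a and without 2a, and 0.0552 to 0.0704 without 1 of the SALI samples, which then change only the shared spread. After median-ratio scaling it was 0.59 (adjusted p = 0.08).

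Txnrd1 encodes the cytosolic thioredoxin reductase, a selenoprotein that uses NADPH. It was at 163, 212 and 197 FPKM in MCLI livers, at 269, 338 and 290.0 FPKM in SALI livers, and at 133 and 227 FPKM in tumors. Every SALI sample was above every other sample, and the MCLI samples lay between the tumor samples. The log2 fold change against MCLI livers was 0.65 ± 0.21 (adjusted p = 0.0402) and against tumors 0.77 ± 0.24 (adjusted p = 0.0375). Tumors and MCLI livers differed by -0.12 ± 0.24 (adjusted p = 0.729). Both calls of SALI livers were close to the threshold. Against MCLI livers, leaving out any 1 MCLI or SALI sample gave an adjusted p between 0.0624 (without C096) and 0.145 (without 1a), with 0.066 without 2a, 0.0846 without 3a, 0.112 without C097 and 0.0872 without C098, and median-ratio scaling gave 0.0585. The call against MCLI livers was also lost with no filter (adjusted p = 0.075) and after scaling to the same summed FPKM (0.111). Against tumors the difference was 0.39 without 2e. With 2e and 3e kept, the adjusted p against tumors was 0.0519, 0.0581 and 0.0606 without 1a, 2a and 3a. It was 0.0556, 0.0905 and 0.0822 without C096, C097 and C098, and 0.0939 with only SALI livers and tumors in the fit. The call against tumors was also lost with no filter, after scaling to the same summed FPKM and after quantile normalization.

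Among 15 listed genes of the thioredoxin system (Srxn1 and Txnrd1 included), 6 rose and 2 fell in SALI against MCLI livers. Beside these stood 25.3% and 14.1% of all genes, and the list's median was 0.02 on the log2 scale. The balance depended on the scaling, with 2 higher and 3 lower after median-ratio scaling (median -0.12) and 2 and 2 after scaling to the same summed FPKM (median -0.07). Against tumors, 8 were higher and 2 lower, with a median of 0.48, beside 17.4% and 15.4% of all genes. Prdx1, a cytosolic peroxiredoxin that sulfiredoxin repairs, was at 213, 226 and 244 FPKM in MCLI livers, at 838, 862 and 957 in SALI livers and at 222 and 255.6 in tumors. It was higher in SALI livers than in tumors by 1.89 ± 0.15 (adjusted p = 5.78e-05), and 8.81% of its windows occur in other genes. Prdx4, the peroxiredoxin of the endoplasmic reticulum, fell by 0.82 on the log2 scale against MCLI livers (adjusted p = 0.00286) and its difference to tumors was -1.16 ± 0.16 (adjusted p = 0.00119). In tumors against MCLI livers, 1 gene rose and 4 fell, beside 12.2% and 6.98% of all genes. Txnip, an inhibitor of thioredoxin, was at 50.8, 78.6 and 92.6 FPKM in MCLI livers and at 12.7 and 29.8 in tumors, a change of -1.83 ± 0.34 (adjusted p = 0.0112).

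Hmox1 encodes heme oxygenase 1, the inducible enzyme that opens the heme ring. It was at 51.8, 60.7 and 47.3 FPKM in MCLI livers, at 167, 234 and 245 FPKM in SALI livers, and at 100.1 and 133 FPKM in tumors. As for Srxn1, the groups did not overlap and tumors were intermediate. Means were 53.3 ± 6.81 (SD, n = 3), 215 ± 41.9 (SD, n = 3) and 117 ± 23.4 FPKM (SD, n = 2). The log2 fold change against MCLI livers was 1.98 ± 0.19 in SALI livers (adjusted p = 0.000116), which passed under every alternative run, and 1.11 ± 0.21 in tumors (adjusted p = 0.0115). SALI livers were above tumors by 0.87 ± 0.21 (adjusted p = 0.0145), and without 2e this was 0.67 (adjusted p = 0.0538). It was 0.69 (adjusted p = 0.0582) after scaling to the same summed FPKM and 0.64 (adjusted p = 0.0763) after quantile normalization.

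Macrophages also make heme oxygenase 1, and bulk tissue cannot tell a change in cell number from a change in RNA per cell. The summed level of 20 macrophage markers was 299.8 to 353 FPKM in MCLI livers, 328, 742 and 267 FPKM in C096, C097 and C098, and 304 and 255.6 FPKM in 2e and 3e. The sum was highest in C097. In SALI against MCLI livers, 1 of 16 tested markers rose (Cd14) and 0 fell (2 and 0 at an unadjusted p under 0.05, limma). Against tumors 3 were higher, and in tumors against MCLI livers 2 were lower, among them Cd163, the receptor for hemoglobin bound to haptoglobin (-1.13 ± 0.30, adjusted p = 0.0354). Without C097 the log2 fold change of Hmox1 between SALI and MCLI livers was 1.91 (adjusted p = 0.0008), which describes only how the value depends on that sample. A sum of markers in bulk tissue cannot give the part of macrophages in the Hmox1 levels, which was not tested.

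**Figure D3:**
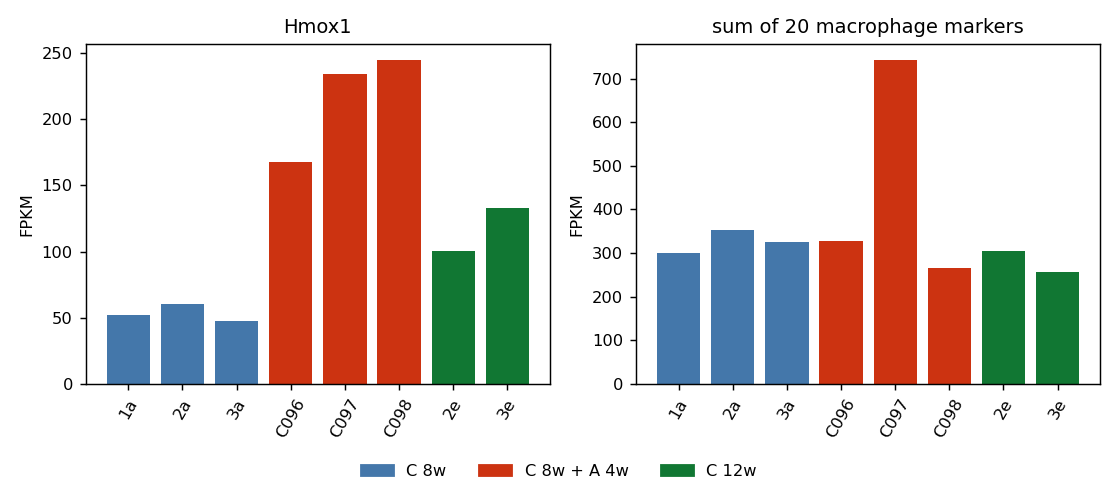
Bars give, for each of the 8 mice, the FPKM of Hmox1 (left) and the summed FPKM of 20 macrophage marker genes (right), on linear axes from 0 and coloured by group. The marker sum is highest in C097 (742 FPKM), and Hmox1 is higher in C096, C097 and C098 than in the other samples. The part of macrophages in these levels was not tested.

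Of 10 genes listed for heme breakdown, transport and, with Alas1 and Fech, synthesis, 1 (Hmox1) rose and 3 fell in SALI against MCLI livers, and their median log2 fold change was 0.13 (-0.01 after median-ratio scaling). Fech, which inserts iron into heme, was among those that fell (-0.49 ± 0.15, adjusted p = 0.0327). Hpx, the plasma protein that carries heme, was at 3082, 2621 and 2453 FPKM in MCLI livers and at 971, 829 and 1199.6 in SALI livers (-1.45 ± 0.38, adjusted p = 0.0177). Blvrb, the biliverdin reductase B, was at 103, 100.2 and 124 FPKM in MCLI livers and at 40.7 and 57.3 in tumors (-1.15 ± 0.19, adjusted p = 0.00644). Alas1, the first enzyme of heme synthesis in the liver, fell in tumors by 1.30 on the log2 scale (adjusted p = 0.00184). In tumors Hmox1 rose while 3 genes of the list fell.

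Slc7a11 encodes xCT, the transporter that imports cystine for glutathione synthesis. It was at 45.8, 74.6 and 72.5 FPKM in MCLI livers, at 108, 179 and 172 FPKM in SALI livers, and at 45.6 and 145 FPKM in tumors. SALI samples were all above MCLI livers, and sample 2e was below every MCLI sample while 3e was among the SALI samples. Its log2 fold change of SALI against MCLI livers was 1.24 ± 0.41 (adjusted p = 0.0409). It lost its call without any 1 of 5 samples, with an adjusted p of 0.144 without 1a, 0.0697 without 2a, 0.0729 without 3a, 0.109 without C097 and 0.113 without C098. It was also lost after median-ratio scaling (adjusted p = 0.0503), scaling to the same summed FPKM (0.0715), quantile normalization (0.0687) and with no filter (0.091). Neither the comparison of tumors with MCLI livers (0.37 ± 0.46, adjusted p = 0.582) nor that of SALI livers with tumors (0.87 ± 0.46, adjusted p = 0.178) passed the test. With 3e as the only tumor the former was 1.20 (adjusted p = 0.0289) and the latter 0.04 (adjusted p = 0.93). With 2e alone they were -0.45 (adjusted p = 0.413) and 1.69 (adjusted p = 0.0084).

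Slc7a11 is also a target of Atf4, the factor of the amino acid and unfolded protein responses. The summed level of a list of 13 genes, Atf4 itself and its targets, was 284 to 338 FPKM in MCLI livers, 678, 383 and 400.0 FPKM in C096, C097 and C098, and 454 and 677 FPKM in 2e and 3e. C096 had the highest Atf4 sum and the lowest Slc7a11 level of its group. Among tumors, 3e was above 2e for both. Among MCLI livers, 3a had the highest Atf4 sum and 2a the highest Slc7a11 level. Of 12 tested genes of that list, 3 rose and 1 fell in SALI against MCLI livers, with a median of 0.78, and 6 rose and 1 fell in tumors, with a median of 1.48. Psat1, an enzyme of serine synthesis, rose in SALI livers by 3.44 ± 0.33 (adjusted p = 0.000129), and Shmt2, of mitochondrial folate metabolism, fell by 1.14 (adjusted p = 0.000238). The part of Atf4 in the Slc7a11 levels was not tested.

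Gclc and Gclm encode the catalytic and the modifier subunit of glutamate cysteine ligase. Gclc was at 504, 614 and 617 FPKM in MCLI livers, at 620.0, 679 and 716 FPKM in SALI livers, and at 313 and 1238 FPKM in tumors. All SALI samples were above the MCLI samples, by little, and the tumor samples lay on either side of all others. Gclm was at 82.8, 94.8 and 87.7 FPKM in MCLI livers, at 70.2, 120.3 and 101 FPKM in SALI livers, and at 68.5 and 108 FPKM in tumors, and the groups overlapped. Between SALI and MCLI livers the log2 fold change was 0.22 ± 0.42 for Gclc (adjusted p = 0.704) and 0.10 ± 0.23 for Gclm (adjusted p = 0.747). Tumors against MCLI livers gave 0.11 ± 0.47 for Gclc (adjusted p = 0.873) and -0.04 ± 0.26 for Gclm (adjusted p = 0.923). With 2e as the only tumor Gclc was at -0.88 (adjusted p = 0.0183), and with 3e alone at 1.10 (adjusted p = 0.00363). The ratio of Gclc to Gclm within a sample was 6.09, 6.47 and 7.04 in MCLI livers, 8.83, 5.65 and 7.09 in SALI livers, and 4.57 and 11.4 in 2e and 3e. The tumor samples held both the lowest and the highest of these ratios.

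Of 14 genes of the glutathione cycle, 4 rose and 4 fell in SALI against MCLI livers (median 0.20), beside 25.3% and 14.1% of all genes. In tumors against MCLI livers 3 rose and 1 fell (median 0.10), beside 12.2% and 6.98% of all genes. After both median-ratio scalings the counts in tumors became 1 and 2. In SALI against MCLI livers 2 rose and 4 fell after scaling to the same summed FPKM or quantile normalization. Gls2, the liver glutaminase, was at 132, 117 and 107 FPKM in MCLI livers, at 14.5, 17.9 and 24.5 in SALI livers and at 136 and 69.4 in tumors. It fell in SALI livers by 2.61 on the log2 scale (adjusted p = 0.000164). Chac1, an enzyme that degrades glutathione, was at 0.70 to 0.79 FPKM in MCLI livers, at 5.09, 0.75 and 1.28 in SALI livers and at 4.31 and 27.4 in tumors, and rose in tumors by 2.82 ± 0.69 (adjusted p = 0.0265). Oplah, which recycles 5-oxoproline to glutamate, fell by 0.91 in tumors (adjusted p = 0.00345). Cbs, which makes cystathionine, and Ggt1, which cleaves glutathione outside the cell, differed between SALI livers and tumors in opposite directions, by -2.53 ± 0.21 (adjusted p = 6.69e-05) and 1.31 ± 0.28 (adjusted p = 0.00853).

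Nqo1 encodes a reductase that turns quinones into hydroquinones. It was at 155, 178 and 170.2 FPKM in MCLI livers, at 219, 233 and 247 FPKM in SALI livers, and at 98.6 and 342 FPKM in tumors. The MCLI and SALI samples did not overlap, and the tumor samples lay below and above all of them. Its log2 fold change of SALI against MCLI livers was 0.47 ± 0.37 (adjusted p = 0.341) in the fit of 3 groups, and with only these groups its SE was 0.11. The other comparisons gave 0.13 ± 0.42 (tumors against MCLI livers, adjusted p = 0.835) and 0.34 ± 0.42 (SALI livers against tumors, adjusted p = 0.564). With 2e as the only tumor the difference to MCLI livers was -0.76 (adjusted p = 0.0169), and with 3e alone it was 1.03 (adjusted p = 0.00253). SALI livers against 2e alone gave 1.23 (adjusted p = 0.000874), and against 3e alone -0.55 (adjusted p = 0.0234).

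G6pdx encodes glucose-6-phosphate dehydrogenase, the entry to the pentose phosphate pathway and a source of NADPH. It was at 7.45, 13.7 and 8.27 FPKM in MCLI livers, at 19.5, 26.4 and 21.5 FPKM in SALI livers, and at 5.20 and 69.5 FPKM in tumors. The sample 3e had the highest and 2e the lowest value of the 8. The ratio of means was 2.30 for SALI livers to MCLI livers, with a log2 fold change of 1.15 ± 0.73 (adjusted p = 0.237). The comparison of tumors with MCLI livers gave 1.00 ± 0.81 (adjusted p = 0.395), with 3e as the only tumor 2.75 (adjusted p = 0.000664) and with 2e alone -0.76 (adjusted p = 0.126). Of the 8 tested genes of the pentose phosphate pathway, 2 rose and 0 fell in SALI against MCLI livers (3 and 0 at an unadjusted p under 0.05, limma), with a median of 0.40, while 25.3% of all genes rose.

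Other genes of the pathway were measured alongside G6pdx. Tkt, transketolase, was at 77.0, 76.2 and 80.7 FPKM in MCLI livers and at 123, 146 and 131 in SALI livers (0.77 ± 0.20, adjusted p = 0.0162). Taldo1, transaldolase, was at 164, 147 and 175 FPKM in MCLI livers, at 269, 252 and 262 in SALI livers and at 131 and 114 in tumors, and was higher in SALI livers than in tumors by 1.09 ± 0.14 (adjusted p = 0.000788). Pgd, which makes NADPH after G6pdx, was at 175, 212 and 196 FPKM in MCLI livers, at 267, 304 and 342 in SALI livers and at 143 and 299 in tumors, and did not pass the test (0.64, adjusted p = 0.0743). H6pd, Pgls, Rpia and Rpe gave log2 fold changes of -0.05, -0.31, 0.15 and -0.13 in SALI against MCLI livers, none past the test. G6pd2 was at 0.11 FPKM or below in every sample.

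Ephx1 encodes the microsomal epoxide hydrolase. It was at 1151, 1129.7 and 1201 FPKM in MCLI livers, at 733, 831 and 814 FPKM in SALI livers, and at 523 and 827 FPKM in tumors. All MCLI samples were above all others, and the other groups overlapped. Its log2 fold change was -0.55 ± 0.19 in SALI livers (adjusted p = 0.0512, past the threshold only in the fit without tumors and under 6 other alternatives) and -0.82 ± 0.22 in tumors (adjusted p = 0.0339). The call in tumors was lost without 1a (adjusted p = 0.0998), 2a (0.0881), 3a (0.0995), C097 (0.0509) or C098 (0.0605), and its adjusted p was 0.242 after quantile normalization. It was also lost with no filter, after scaling to the same summed FPKM and with only MCLI livers and tumors in the fit (adjusted p = 0.0834). The fits of 4 samples described below did not call it either. Ephx2, the soluble epoxide hydrolase, was at 267, 255 and 313 FPKM in MCLI livers and at 156, 213 and 185 in SALI livers (-0.60 ± 0.20, adjusted p = 0.0415). Ephx3 was at most 0.17 FPKM and Ephx4 at most 0.43 FPKM in any sample.

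Ugdh encodes the dehydrogenase that makes UDP-glucuronate, the sugar donor of glucuronidation. It was at 606, 679.8 and 657 FPKM in MCLI livers, at 549.9, 602 and 535 FPKM in SALI livers, and at 313 and 576 FPKM in tumors. MCLI samples were above all others. Its log2 fold change was -0.20 ± 0.22 in SALI livers (adjusted p = 0.489) and -0.61 ± 0.25 in tumors (adjusted p = 0.111), neither past the test. With 2e as the only tumor the latter was -1.04 (adjusted p = 0.00629), and with 3e alone -0.17 (adjusted p = 0.442). Ephx1 and Ugdh are both abundant in hepatocytes, and of 13 tested hepatocyte markers 2 rose and 6 fell in SALI against MCLI livers (median -1.25), while in tumors 1 rose and 1 fell (median 0.15). Their part in the levels of Ephx1 and Ugdh was not tested. Of 18 tested genes of glucuronidation, 2 rose and 7 fell in SALI against MCLI livers (median -0.40), beside 25.3% and 14.1% of all genes. In tumors 0 rose and 3 fell (median -0.17), beside 12.2% and 6.98% of all genes. At an unadjusted p under 0.05 (limma) the counts in tumors were 3 and 5. Ugt2b1, a glucuronosyltransferase, was at 223, 219 and 154 FPKM in MCLI livers, at 12.3, 30.2 and 29.8 in SALI livers and at 93.8 and 125 in tumors, and fell in SALI livers by 3.08 on the log2 scale (adjusted p = 0.000224). Uxs1, which turns UDP-glucuronate into UDP-xylose, rose by 1.09 ± 0.19 (adjusted p = 0.00267). Ugt1a1, the bilirubin transferase, fell in tumors by 1.94 (adjusted p = 0.000523), but 80.2% of its windows are shared, since the Ugt1a genes share exons, so reads between them are uncertain.

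Sample 3e was above 2e for 9 of the 10 genes, and most of all genes tested were also higher in 3e. The ratio of 3e to 2e was 13.4 for G6pdx, 3.95 for Gclc, 3.47 for Nqo1 and 3.18 for Slc7a11. It was between 1.33 (Hmox1) and 1.84 (Ugdh) for 5 more and 0.913 for Srxn1. With 1 sample on each side this compares the samples and not conditions, and no test was made. A difference of at least 1 on the log2 scale was met by 4 of 10 genes toward 3e and 0 toward 2e, and by 3.66% and 3.17% of all genes. The median difference was 0.82 for the 10 genes and 0.11 for all genes. Within MCLI livers, the median range over samples was 0.32 for the 10 genes and 0.20 for all genes, and within SALI livers it was 0.27 and 0.29. Markers of bile duct cells, summed over 12 genes, were at 32.3 to 48.7 FPKM in MCLI livers, at 61.7 to 100.9 in SALI livers, at 55.9 in 2e and at 386 in 3e, of which Spp1, the gene of osteopontin, made 311. Their part in the difference between 2e and 3e was not tested.

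**Figure D4:**
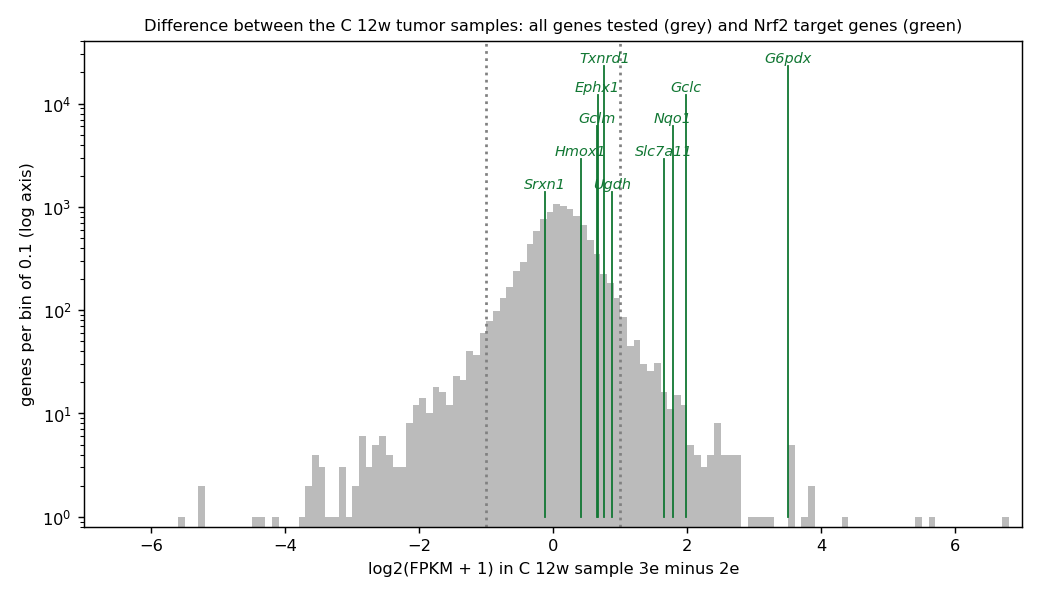
Grey bars count all 10244 genes tested by the difference of log2(FPKM + 1) between the C 12w samples 3e and 2e in bins of 0.1, on a log axis. Green lines mark the 10 Nrf2 target genes and dotted lines a difference of 1 in either direction, past which G6pdx, Gclc, Nqo1 and Slc7a11 lie toward 3e and none toward 2e.

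The ratios of Srxn1 and of Hmox1 to Nqo1 were higher in every SALI sample than in any MCLI sample. The ratio of Srxn1 to Nqo1 was 0.847, 0.89 and 1.25 in MCLI livers, 3.57, 3.04 and 2.80 in SALI livers, and 2.89 in 2e against 0.76 in 3e. The ratio of Hmox1 to Nqo1 was 0.334, 0.342 and 0.278 in MCLI livers, 0.764, 1.00 and 0.989 in SALI livers, and 1.02 in 2e against 0.390 in 3e. In both ratios 2e lay with or beyond the SALI samples, and 3e outside their range and near MCLI livers. The ratio of Gclc to Gclm overlapped between MCLI livers (6.09 to 7.04) and SALI livers (5.65 to 8.83), with 2e (4.57) below and 3e (11.45) above both. These ratios are unchanged by scaling each sample with 1 factor, but not by quantile normalization.

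Regulators of Nrf2 were listed as 14 genes, of which 13 were tested. In SALI against MCLI livers 6 of them rose and 0 fell, beside 25.3% and 14.1% of all genes. At an unadjusted p under 0.05 (limma) the counts were 9 and 1, and the median was 0.48. Nfe2l2 itself was at 39.1, 41.3 and 52.4 FPKM in MCLI livers, at 48.7, 79.1 and 48.7 in SALI livers and at 51.9 and 61.5 in tumors, and did not pass the test in either comparison with MCLI livers (0.38, adjusted p = 0.183 and 0.36, adjusted p = 0.291). Keap1, its inhibitor, was at 16.2, 17.1 and 18.1 FPKM in MCLI livers, at 21.7, 20.1 and 20.9 in SALI livers and at 15.9 and 13.7 in tumors. It was higher in SALI livers than in tumors (0.47, adjusted p = 0.0147), and against MCLI livers the difference was 0.27 (adjusted p = 0.0646).

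All 3 small Maf genes, whose proteins pair with Nrf2, rose in SALI against MCLI livers. Maff was at 5.0, 4.14 and 4.91 FPKM in MCLI livers, at 14.2, 13.4 and 12.7 in SALI livers and at 6.31 and 5.24 in tumors (1.35 ± 0.11 against MCLI livers, adjusted p = 5.54e-05). Mafk rose by 1.04 (adjusted p = 0.000648) and Mafg by 0.67 (adjusted p = 0.0025). Bach1, a repressor that competes for the same DNA element, rose by 0.83 (adjusted p = 0.00252). Of the Keap1 ligase, Rbx1 rose by 0.96 (adjusted p = 0.000296) and Cul3 by 0.48 (adjusted p = 0.0152), and Rbx1 was higher than in tumors by 1.20 ± 0.12 (adjusted p = 0.000208). Genes of proteins that aid Nrf2 and of proteins that restrain it rose in the same samples.

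In tumors against MCLI livers, 0 of the 13 regulators passed the test with limma (1 higher and 0 lower at an unadjusted p under 0.05), and the median was 0.15. Against tumors, 7 regulators were higher in SALI livers and 1 was lower, beside 17.4% and 15.4% of all genes. After scaling to the same summed FPKM the counts were 3 and 1. The lower one was Dpp3, a peptidase that binds Keap1, at 20.6, 17.0 and 17.4 FPKM in SALI livers and at 25.5 and 25.6 in tumors (-0.46 ± 0.12, adjusted p = 0.0212). Sqstm1, the autophagy receptor p62 that binds Keap1, was at 319 to 323 FPKM in MCLI livers, at 370 to 447 in SALI livers and at 369 and 422 in tumors, and did not pass the test (0.33, adjusted p = 0.0878 for SALI against MCLI livers). Nfe2l1, a relative of Nrf2, Gsk3b and Btrc, of another route of Nrf2 destruction, gave -0.07, 0.58 and -0.27 in SALI against MCLI livers, none past the test, and Bach2 was too low to be tested.

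A further 35 Nrf2 targets from outside the 10 were listed, of which 34 were tested. In SALI against MCLI livers, 11 rose and 1 fell, beside 25.3% and 14.1% of all genes. The counts were 9 and 3 after both median-ratio scalings, and the median was 0.33. In tumors against MCLI livers, 3 rose and 5 fell, beside 12.2% and 6.98% of all genes. At an unadjusted p under 0.05 the counts were 4 and 11, and the median was -0.29. After both median-ratio scalings the counts past the adjusted threshold were 2 and 9, and after the other scalings 3 and 3. Against tumors, 15 were higher and 1 lower in SALI livers, with a median of 0.64, beside 17.4% and 15.4% of all genes. Gpx2, a glutathione peroxidase, was at 10.1, 16.1 and 68.8 FPKM in MCLI livers, at 117, 177 and 153 in SALI livers and at 47.3 and 46.5 in tumors (2.64 ± 0.57 against MCLI livers, adjusted p = 0.00759). Mgst1, a microsomal glutathione transferase and the one that fell as deposited, was at 951, 944 and 1021 FPKM in MCLI livers and at 572, 589 and 673 in SALI livers (-0.67 ± 0.15, adjusted p = 0.00806).

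In tumors, Abcc1, an efflux pump for glutathione conjugates, rose from 0.39, 0.60 and 0.94 FPKM in MCLI livers to 1.81 and 4.98 (1.33 ± 0.29, adjusted p = 0.0186). It also rose in SALI livers, to 3.11, 4.13 and 3.87 FPKM (1.52 ± 0.26, adjusted p = 0.00259). Osgin1, a growth inhibitor induced by oxidative stress, was at 71.4, 105 and 73.0 FPKM in SALI livers and at 183 and 367 in tumors (-1.65 ± 0.30 for SALI livers against tumors, adjusted p = 0.00414). Gsta1, a glutathione transferase, was higher in SALI livers than in tumors by 2.49 ± 0.38 (adjusted p = 0.00188), but 90.5% of its windows occur in other genes. Cyp2a5 was listed at 0 in 2a and 3a and at 7546 FPKM in 1a, so its call in SALI livers (one of the 11) rests on samples listed at 0 beside 1 at a high level. No gene of these lists that passed the test changed sign under any of the 4 other scalings.

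For the 3 members with the widest range over the 8 samples, the genes with the nearest pattern were sought by the root mean square difference of log2 values, each gene centred on its mean. Serpine2 (0.386), Ezr (0.412) and Lad1 (0.438) were nearest to G6pdx, and all 3 were highest in 3e, at 12.8, 22.4 and 35.6 FPKM. Actg1 (0.146), Syt13 (0.147) and Tfdp1 (0.153) were nearest to Srxn1. Of these Syt13 shares no window with other genes and was at 5.54, 7.80 and 12.5 FPKM in MCLI livers, at 42.4, 34.7 and 45.7 in SALI livers and at 15.9 and 15.05 in tumors, whereas Actg1 shares 37.4% and Tfdp1 16.8%. Clcn5 (0.191), Cdc73 (0.203) and Tuba1a (0.217) were nearest to Hmox1, with shared percentages of 0, 4.23 and 75.5.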

How the data were processed

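Total RNA of 8 mice was made into libraries with the Illumina TruSeq RNA kit. The authors deposited 1 FPKM value per gene and sample, keyed by Ensembl gene ID, of which 22314 of 22504 were paired with a symbol. The submitters' processing notes name Bowtie 0.12.2 and the mouse build mm8. The program that computed FPKM, its annotation and its treatment of reads with several matches are not given in the sources used here. FPKM values hold no counts and the sequencing depth is unknown, so no counting interval is given. Steps of whole reads were sought in the log2 ratio of each sample to 2a. The share of genes within 0.015 of the most frequent ratio was 9.62% in 1a, 4.5% in 2e, 3.88% in 3a and 2.66% in 3e. It was 2.0% to 2.19% in SALI livers. The summed FPKM was 324735 to 399342 per sample, and 9797 to 10658 genes reached 1 FPKM.

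Genes with at least 1 FPKM in at least 4 samples were kept (10244), which stands in for the study's filter on reads. Values were tested as log2(FPKM + 1) with limma 3.58.1 (R 4.3.3; lmFit and eBayes with a trend) in 1 model of the 3 groups, and p-values were adjusted by Benjamini-Hochberg (threshold 0.05). A fold change on that scale understates the change of low genes. The code was tested on simulated data. Samples were taken as separate mice by their codes, and p-values measure only the spread between these samples. Shared sequence was computed from 50-base windows of GENCODE transcripts on either strand, and a gene had little of it at up to 2%.

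The 10 genes, the other lists and the tests were chosen with earlier results of these data known. All 10 genes are described. From each other list, the gene that rose most and the one that fell most among called genes with groups that do not overlap could be named, as well as all regulators tested, all genes of the pentose phosphate and epoxide hydrolase lists, and the 3 genes nearest in pattern to each of 3 members. Gapdh, Ppia, Alb, Hprt, Eef1a1, Rplp0, Crx, Rcvrn, Cyp2a5, Fech and the values of Abcc1 in SALI livers were chosen after their values were seen. Replicate numbers 2 and 3 occur in both C 8w and C 12w, but these are different mice.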

Additional observations from a re-analysis of the deposited data

How the results depend on the processing

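Srxn1 and Hmox1 in SALI against MCLI livers, and Srxn1 in SALI livers against tumors, passed the test under every alternative run. The other calls were lost under at least 1. Counts of the 10 genes called in SALI against MCLI livers were 4 as reported, 2 with no filter on low values, 3 (2 higher, 1 lower) after median-ratio scaling or scaling to the same summed FPKM, 7 with only those groups in the fit, and 2 to 7 with 1 sample left out. In tumors against MCLI livers the count was 3, and 1 with no filter, with only those groups, or where a log2 difference of 1 was required too, and 1 to 6 with 1 sample left out. In SALI livers against tumors it was 3, and 1 after scaling to the same summed FPKM, after quantile normalization, with only those groups or with the fold required, and 2 to 9 with 1 sample left out. The F test called 4, and 2 with no filter or after quantile normalization, and 2 to 9 with 1 sample left out. The cause was not tested, except that fewer samples or other genes entered these fits. For SALI against MCLI livers and for the F test, no share of all genes stands beside the counts without 2e or 3e. Those counts are not read as a result about the 10 genes. The highest counts came without 2e (replicate 2 of tumors) or without 3e (replicate 3 of tumors). In SALI livers against tumors these were 1 higher and 3 lower without 2e, and 9 higher and 0 lower without 3e. An arm then held 1 sample, which was assumed to vary like the other groups.

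Without 3e, the difference of tumors against MCLI livers was -0.76 for Nqo1 (adjusted p = 0.0169) and -0.88 for Gclc (adjusted p = 0.0183), and without 2e 1.03 (adjusted p = 0.00253) and 1.10 (adjusted p = 0.00363), so the direction rests on which tumor is kept.

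With the replicate block (the numbers 2 and 3 that MCLI livers and tumors share, over 4 samples), 0 of the 10 genes were called by limma, 1 (Hmox1) at an unadjusted p under 0.05. Without a block, the same 4 samples gave 0 and 1 as well. The correlation of same-numbered deviations was -0.19 across genes. It rests only on the difference between numbers 2 and 3 in each group, so it cannot decide whether the numbers pair the samples. A crossed replicate block, chosen after seeing the data, also gave 0 called and 1 at an unadjusted p under 0.05.

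Log2 fold changes that changed sign all belonged to genes not called in the reported comparison. After median-ratio scaling these were Gclm in SALI against MCLI livers (-0.042) and Gclc in tumors against MCLI livers (-0.019). With that scaling over genes with little shared sequence they were the same Gclm (-0.014) and Gclc (-0.034) differences and Nqo1 in tumors against MCLI livers (-0.012). After scaling to the same summed FPKM they were Gclm in tumors against MCLI livers (0.058) and, in SALI livers against tumors, Gclc (-0.079), Gclm (-0.045) and G6pdx (-0.022). After quantile normalization they were Gclm (0.125) and Txnrd1 (0.148) in tumors against MCLI livers and Gclc (-0.002) and Gclm (-0.058) in SALI livers against tumors. With 1 sample left out, SALI against MCLI livers ran from -0.068 to 0.316 for Gclm. Tumors against MCLI livers ran from -0.758 to 1.025 for Nqo1, -0.877 to 1.103 for Gclc, -0.363 to 0.289 for Gclm, -0.505 to 0.258 for Txnrd1, -0.454 to 1.195 for Slc7a11 and -0.756 to 2.751 for G6pdx. SALI livers against tumors ran from -0.552 to 1.232 for Nqo1, -0.884 to 1.096 for Gclc, -0.187 to 0.464 for Gclm, -1.596 to 1.911 for G6pdx, -0.064 to 0.596 for Ephx1 and -0.035 to 0.841 for Ugdh. Over all genes of the list, comparisons and alternatives, 508 values kept their direction and side of the threshold, 63 lost a call, 25 gained one and 28 changed sign.

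Code series, and whatever processing went with it, cannot be told apart from SALI livers. Tumors have 2 samples. No depth is known.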
